A study of Mus musculus with 20 samples.

Results

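The genes described here were 10 early-response transcription factor genes in 3 families: the NR4A nuclear receptors Nr4a1, Nr4a2 and Nr4a3, the EGR zinc-finger factors Egr1, Egr2 and Egr3, and the AP-1 subunits Fos, Fosb, Jun and Junb. They were chosen by symbol, and all 10 were present in each of 3 count tables, which held 47729, 54532 and 55487 genes. All 10 also passed the filter on low counts in each table. The series measured RNA of sorted mouse cDC1s (conventional type 1 dendritic cells, the cross-presenting dendritic cells that carry XCR1) to study tolerance and the part played in it by EpoR, the receptor for erythropoietin.

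There were 20 libraries in 8 groups. The first table held XCR1+CD8a+ cDC1s sorted from C57BL/6 wild-type mice that were untreated (n = 2) or on day 15 of TLI/ATS (n = 2), a conditioning regimen of total lymphoid irradiation with anti-thymocyte serum. The second table held the EpoR+ (n = 2) and EpoR- (n = 2) fractions of cDC1s from EpoR-tdTomato reporter mice, all on day 15 of TLI/ATS. The third table held CCR7+ XCR1+SIRPa- cDC1s of the spleen and migratory XCR1+SIRPa- cDC1s of the peripheral lymph nodes, each from Eporflox/flox control mice (n = 3) and from Epor-Xcr1-Cre cKO mice (n = 3), in which Cre expressed from Xcr1 deletes Epor. All mice of the third table carry the floxed allele, the labels name no Cre in the controls, and no TLI/ATS is stated for them, so effects of Cre itself and of Epor loss cannot be told apart. The labels do not say whether libraries of a group came from separate mice, and p-values then measure only the spread between these libraries.

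Early-response genes are transcribed within minutes of a stimulus by factors that are already present in the cell, such as SRF with its ELK partners and CREB, and their mRNAs are short-lived. NR4A proteins are orphan nuclear receptors that bind DNA without a known natural ligand, EGR proteins bind GC-rich sites, and FOS and JUN proteins pair through leucine zippers to form AP-1. In dendritic cells Nr4a3 has been linked to CCR7-dependent migration, and in lymphocytes Nr4a1, Egr2 and Egr3 are read-outs of antigen receptor signalling that also restrain it.

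On GRCm38 the NR4A genes lie at chr15:101254269-101274795 (Nr4a1, plus strand), chr2:57106830-57124003 (Nr4a2, minus strand) and chr4:48045153-48086447 (Nr4a3, plus strand). Egr2 lies at chr10:67535475-67542188 and Egr3 at chr14:70077203-70082614, both on the plus strand. Fos lies at chr12:85473890-85477273 on the plus strand, and Fosb (chr7:19302696-19310051), Jun (chr4:95049034-95052222) and Junb (chr8:84974484-84978718) lie on the minus strand. Jun shares 7.28% of its exon bases with the antisense gene Junos, and Junb shares 7.52% with Prdx2 on the opposite strand. Counting in the second and the third table did not use strand, so those reads could not be assigned to one of the partners. The other 8 genes share no exon base with another gene.

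The promoter stretches of Nr4a1, Nr4a2 and Nr4a3 are shown because these genes moved differently in the cKO libraries of the lymph node, and those of Fos and Jun because they moved together there. They are exon-free bases of the RefSeq promoter windows on GRCm38.p6, each window running from 250 bases before to 50 bases after a start, 5′ to 3′ on the gene's strand. Capitals mark a CRE half-site (TGACG, or CGTCA when read on the opposite strand) or an EGR site (GCGNGGGCG on either strand). The Nr4a1 stretch is chr15:101266746-101266845, that of Nr4a2 chr2:57124004-57124103, that of Nr4a3 chr4:48045055-48045152, that of Fos chr12:85473790-85473889 and that of Jun chr4:95052223-95052322.
Nr4a1: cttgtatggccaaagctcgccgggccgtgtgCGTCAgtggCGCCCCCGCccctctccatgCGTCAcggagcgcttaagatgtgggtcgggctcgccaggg
Nr4a2: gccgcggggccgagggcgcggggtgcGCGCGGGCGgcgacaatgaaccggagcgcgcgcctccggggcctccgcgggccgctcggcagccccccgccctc
Nr4a3: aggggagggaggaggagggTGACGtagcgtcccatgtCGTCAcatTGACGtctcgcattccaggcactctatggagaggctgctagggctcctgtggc
Fos: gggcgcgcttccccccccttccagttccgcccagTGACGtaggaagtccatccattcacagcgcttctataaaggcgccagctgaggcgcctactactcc
Jun: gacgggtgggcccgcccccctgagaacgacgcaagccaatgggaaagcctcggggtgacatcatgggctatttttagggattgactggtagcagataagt

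A window was found for 8 of the 10 genes, all but Egr1 and Egr3, and motifs were searched in windows of 300 bases on both strands. The CRE half-site TGACG was present in 7 of the 8, all but Jun, and in 20.8% of all 32851 windows of the table. It was added to the search after the windows had been seen. The full CRE (TGACGTCA), present in 1.79% of all windows, was in none of the 8. The EGR site GCGNGGGCG was in the windows of Nr4a1, Nr4a2 and Fosb and in 5.55% of all windows. The CArG box, the element that SRF binds, was in that of Egr2 and in 1.63% of all windows. The AP-1 site TGANTCA (7.81% of all windows) and the NR4A monomer site AAAGGTCA (1.51%) were in none of the 8. The TGACG letters can overlap a full CRE or an AP-1-like site, and a match describes letters, not a bound site.

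Levels are given in CPM, a gene's counts divided by the library's total and multiplied by 1000000. That total ran from 26.6 to 77.6 M counts per library. Differences are log2 fold changes with their standard error (SE), with TMM scaling between libraries and the quasi-likelihood test of edgeR, and a gene is called at a Benjamini-Hochberg adjusted p under 0.05 over all genes tested. Each of the 10 cDC1 markers examined had counts in every group. Epor had 236 and 127 counts after TLI/ATS and 0 in both untreated libraries, 525 and 657 counts in EpoR+ and 4 and 11 in EpoR- cDC1s. In lymph node it had 24, 28 and 4 counts in controls and 0 in all 3 cKO libraries. In spleen it had 1, 0 and 6 counts in controls and 0, 2 and 0 in cKO libraries, so its loss was not detectable there at this depth.

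Per kilobase of exon, Junb and Fos were at the top of the order in every group and Egr3 was last or next to last. In spleen controls Junb stood at 687 ± 55.7 CPM per kb (SD, n = 3), Fos at 574 ± 42.8, Jun at 259 ± 28.5 and Nr4a1 at 89.6 ± 4.63. The length used for Junb was 1809 bases in the first and the third table and 2301 bases in the second. With the longer one, Junb would lie below Fos in spleen controls. The first table came without lengths, and those of the third were used. Nr4a3 (57.3 ± 8.97) and Fosb (55.9 ± 11) followed with overlapping ranges, then Nr4a2 (24.5 ± 5.1), Egr1 (14.8 ± 2.42), Egr2 (6.29 ± 1.14) and Egr3 (1.71 ± 0.621). In lymph node controls the order again began with Junb at 759 ± 69.4 CPM per kb, Fos at 385 ± 17, Jun at 245 ± 43.4 and Nr4a1 at 37.6 ± 1.18. Nr4a3, above Fosb and Nr4a2 in spleen controls, was below both there at 6.08 ± 1.45 CPM per kb. In the untreated cDC1s of the first table Fos led at 1665 ± 3.54 CPM per kb (SD, n = 2), and Nr4a3, at 4.79 ± 0.938, lay next to last.

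In the lymph node, cKO libraries held more Nr4a2 and Nr4a3 mRNA and less Fos and Jun mRNA than control libraries. Of the 10 genes, 2 were called higher and 2 lower, where 0.288% of all 17362 genes tested were called higher and 0.167% lower. Both genes that rose were NR4A members and both that fell were AP-1 members. The median log2 fold change was 0.85 over the 3 NR4A genes, -0.33 over the 4 AP-1 genes and 0.0 over all genes tested.

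**Figure D1:**
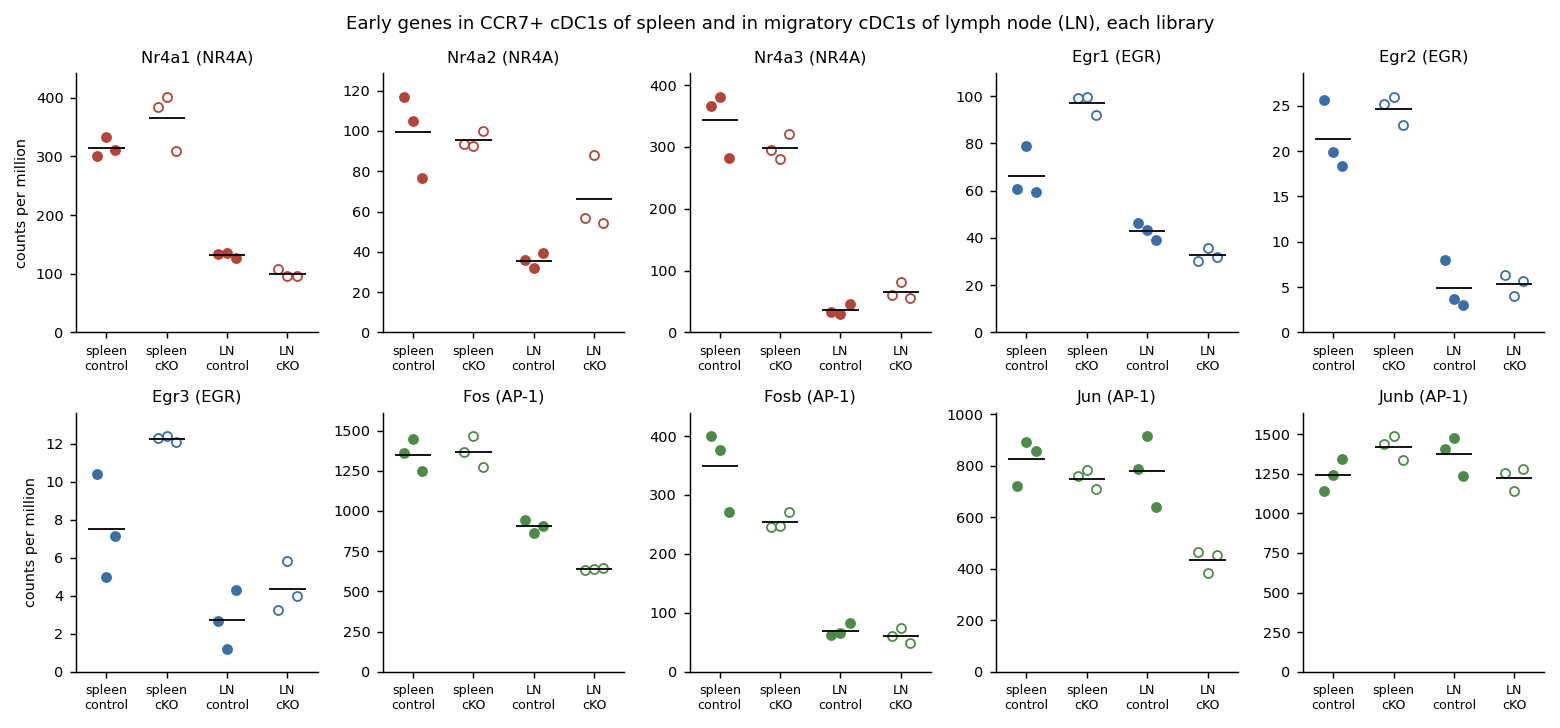
CPM (linear axis from 0) of each early gene in the 12 libraries of the third table, with filled points for control, open points for cKO, and a line at each group's mean. In lymph node (LN) the cKO libraries of Nr4a2 and Nr4a3 lie above all controls and those of Fos and Jun below them, and most genes stand lower in lymph node than in spleen.

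Nr4a2, whose product is also known as Nurr1, stood at 35.8, 31.8 and 39.2 CPM in the lymph node controls and at 56.6, 87.9 and 54.1 CPM in the cKO libraries. Every cKO library lay above every control, and the second lay furthest above. The log2 fold change was 0.90 ± 0.16 (SE; edgeR's quasi-likelihood test, Benjamini-Hochberg adjusted p = 0.012). Nr4a3, or Nor1, stood at 32.7, 30.2 and 46.4 CPM in controls and at 59.9, 81.2 and 55.4 CPM in cKO libraries. The groups did not overlap here either, and the second cKO library was again the highest. The log2 fold change of Nr4a3 was 0.85 ± 0.15 (edgeR adjusted p = 0.012).

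Nr4a1, or Nur77, lay on the other side of its control. It stood at 134, 135 and 127 CPM in controls and at 108, 96.6 and 95.5 CPM in cKO libraries, which did not overlap. Its log2 fold change of -0.39 ± 0.10 missed the threshold with edgeR (adjusted p = 0.156) and passed it with DESeq2 (adjusted p = 0.027). The summed level of the 3 NR4A genes was 202, 197 and 213 CPM in controls and 224, 266 and 205 CPM in cKO libraries, and these ranges overlapped.

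Fos, the AP-1 subunit that cannot pair with itself, stood at 943, 863 and 909 CPM in the lymph node controls and at 632, 638 and 645 CPM in the cKO libraries. The 3 cKO libraries lay within a narrow range below every control. Fos fell by 0.49 on the log2 scale (SE 0.07; edgeR adjusted p = 0.00108). Jun, the main partner of FOS, stood at 789, 916 and 639 CPM in controls and at 465, 382 and 452 CPM in cKO libraries. The groups did not overlap, although the controls were spread widely. Jun fell by 0.84 on the log2 scale (SE 0.13; edgeR adjusted p = 0.00574).

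The other AP-1 members did not pass the test in lymph node. Fosb ranged from 61.9 to 82.2 CPM in controls and from 48.7 to 74.4 CPM in cKO libraries, a log2 fold change of -0.18 ± 0.14. Junb ranged from 1234 to 1477 CPM in controls and from 1141 to 1282 CPM in cKO libraries, a log2 fold change of -0.15 ± 0.10. Neither did the EGR genes. Egr1 stood at 46.1, 43.2 and 39.2 CPM in controls and at 30.4, 35.6 and 32.0 CPM in cKO libraries, with no overlap and a log2 fold change of -0.38 ± 0.11 (edgeR adjusted p = 0.271). Egr2 stayed under 8 CPM in all 6 libraries and Egr3 under 6 CPM, with log2 fold changes of 0.14 ± 0.31 and 0.69 ± 0.39.

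Of the genes around this response in the lymph node, 1 of the 13 feedback regulators tested was called. Zfp36l1, which encodes a protein that promotes decay of AU-rich mRNAs, rose by 0.35 ± 0.06 on the log2 scale (edgeR adjusted p = 0.0156), from 965 ± 24.3 to 1221 ± 52.8 CPM (SD, n = 3). None of the 22 other immediate early genes, 11 AP-1 and bZIP partners or 19 upstream factors and kinases tested was called by edgeR. At an unadjusted p under 0.05 were 6, 1 and 2 of them, and DESeq2 called 1, 0 and 0. DESeq2 called 177 of all 17362 genes tested here, and the share at an unadjusted p under 0.05 was not computed. Fos, Jun and Egr1 and the heat shock genes are known to respond to tissue dissociation and sorting. Heat shock genes fell beside Fos and Jun: 2 of 12 were called lower and none higher, Hspa1a by 0.78 (SE 0.09; edgeR adjusted p = 0.000129) and Hspa1b by 0.72 (SE 0.08; edgeR adjusted p = 9.96e-05). The summed level of the 12 ran from 6687 to 7347 CPM in controls and from 5540 to 5939 CPM in cKO libraries. That of 10 T cell markers ran from 320 to 330 CPM and from 241 to 264 CPM. None of these 10 markers was called by edgeR or DESeq2, and 1 had an unadjusted p under 0.05 with edgeR. The part of both lists in the fall of Fos and Jun was not tested. In bulk RNA fewer cells of a type cannot be told apart from less RNA per cell.

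The calls of Fos and Jun held in each fit with a lymph node library left out. Those of Nr4a2 and Nr4a3 were lost without the first lymph node control (edgeR adjusted p = 0.058 and 0.0814), without the second (0.0688 and 0.0642) and in a fit of the 2 lymph node groups alone (0.0766 and 0.117), and that of Nr4a3 also without the second cKO library (0.0511).

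In spleen, none of the 10 genes passed the test between cKO and control, where 0.49% of all genes tested were called higher and 0.121% lower. At an unadjusted p under 0.05 there were 2, Egr1 and Fosb, and DESeq2 called both. Egr1 stood at 60.6, 78.7 and 59.3 CPM in controls and at 99.2, 99.7 and 92.1 CPM in cKO libraries. All 3 cKO libraries lay above all 3 controls, with a log2 fold change of 0.52 ± 0.11 (edgeR adjusted p = 0.0509, DESeq2 adjusted p = 0.00339). Fosb, a FOS relative with a stable splice form, stood at 400, 376 and 271 CPM in controls and at 246, 247 and 271 CPM in cKO libraries. The third control reached down to the cKO level, and the log2 fold change was -0.48 ± 0.14 (edgeR adjusted p = 0.144, DESeq2 adjusted p = 0.0369).

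The other 8 genes did not reach an unadjusted p under 0.05 in spleen. Nr4a1 stood at 300, 332 and 311 CPM in controls and at 384, 401 and 309 CPM in cKO libraries, a log2 fold change of 0.17 ± 0.10. Nr4a2 had a log2 fold change of -0.09 ± 0.15 and Nr4a3 of -0.23 ± 0.14, both with overlapping groups. Fos, at 1361, 1447 and 1246 CPM in controls and 1369, 1466 and 1273 CPM in cKO libraries, had a log2 fold change of -0.02 ± 0.07, and Jun of -0.18 ± 0.13. Egr3 stood at 10.4, 5.0 and 7.16 CPM in controls and between 12.1 and 12.4 CPM in cKO libraries, a log2 fold change of 0.66 ± 0.38 with no overlap of the groups. Heat shock genes were also lower in the spleen cKO libraries, with 3 of 12 called (Hspb1 by -1.02 ± 0.14, Hsph1 by -0.61 ± 0.09 and Hspe1 by -0.56 ± 0.09). None of the 65 genes tested from the other 4 lists was called by edgeR (8 at an unadjusted p under 0.05, 2 called by DESeq2). Of all 17362 genes tested, DESeq2 called 549 in spleen. The summed level of 8 plasma cell markers ran from 1230 to 1478 CPM in controls and from 2627 to 2962 CPM in cKO libraries, and its part in the Egr1 difference was not tested. Egr1 was called without the second spleen control (edgeR adjusted p = 0.0207). With no filter on low counts, both Egr1 (edgeR adjusted p = 0.0125) and Fosb (0.0025) were called.

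Whether the cKO effect differed between the tissues was tested as an interaction in the fit of all 12 libraries. The test called 3 of the 10 genes, 1 with a more positive effect in lymph node and 2 with a more negative one, where 0.127% and 0.19% of all genes tested were called in these directions. The effect on Nr4a3 was larger in lymph node by 1.08 ± 0.21 on the log2 scale (edgeR adjusted p = 0.037): 0.85 there against -0.23 in spleen. The effect on Egr1 differed by -0.90 ± 0.16 (edgeR adjusted p = 0.0214), being -0.38 in lymph node and 0.52 in spleen. That on Fos differed by -0.48 ± 0.09 (edgeR adjusted p = 0.0417), from -0.49 in lymph node and -0.02 in spleen. For Nr4a2 the difference was 0.99 ± 0.22 (edgeR adjusted p = 0.0707), for Jun -0.66 ± 0.19 (0.16) and for Nr4a1 -0.56 ± 0.14 (0.108), none of which passed. These calls depended on single libraries: with 1 library left out, 0 to 4 of the 10 genes were called, and none without the first lymph node cKO library, the first lymph node control, or the first or second spleen cKO library.

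**Figure D2:**
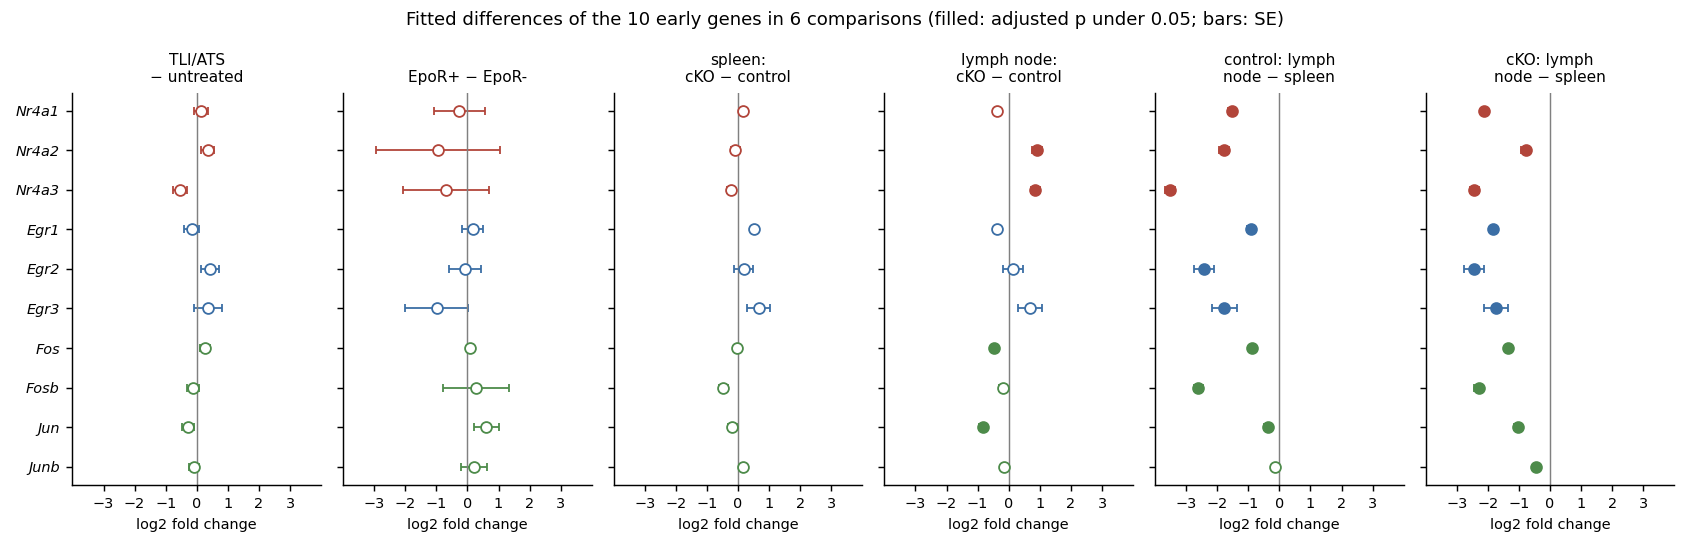
Fitted log2 fold changes (points) with standard errors (bars) of the 10 early genes in 6 comparisons, filled where the edgeR adjusted p was under 0.05. Lymph node points of Nr4a2 and Nr4a3 lie at 0.90 and 0.85 and those of Fos and Jun at -0.49 and -0.84 between cKO and control, while almost all points between lymph node and spleen are filled and negative.

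Early genes were lower in the migratory cDC1s of the lymph node than in the CCR7+ cDC1s of the spleen in both genotypes. In controls 9 of the 10 were called lower and none higher, where 20.3% of all genes tested were called lower and 21.0% higher. In cKO mice all 10 were called lower, against a background of 15.3% lower and 14.1% higher. The median log2 fold change of the 10 was -1.66 in controls and -1.78 in cKO mice, beside -0.01 and 0.0 over all genes tested. The 2 tissues were sorted through different gates, so tissue and gate cannot be told apart.

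Among the NR4A genes the gap between the tissues was widest for Nr4a3. Folds and log2 fold changes between the tissues include TMM scaling and CPM does not, so they differ from ratios of the CPM values. In controls Nr4a3 stood at 367, 381 and 282 CPM in spleen and at 32.7, 30.2 and 46.4 CPM in lymph node, so the lowest spleen library lay far above the highest of lymph node. It was 11.5-fold lower in lymph node, a log2 fold change of -3.53 ± 0.16 (edgeR adjusted p = 2.82e-10). In cKO mice it stood at 295, 280 and 322 CPM in spleen and 59.9, 81.2 and 55.4 CPM in lymph node, a log2 fold change of -2.44 ± 0.15. Nr4a1 was 2.92-fold lower in control lymph node (132 ± 4.13 against 314 ± 16.2 CPM; SD, n = 3) and 4.32-fold lower in cKO lymph node, where it ran from 95.5 to 108 CPM against 309 to 401 CPM in spleen. Nr4a2 was 3.41-fold lower in controls (35.6 ± 3.68 against 99.6 ± 20.7 CPM) and 1.72-fold lower in cKO mice (66.2 ± 18.8 against 95.3 ± 3.96 CPM).

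The EGR genes were low in lymph node throughout. Egr2, a factor that restrains T cell activation, stood at 25.7, 19.9 and 18.4 CPM in control spleen and at 7.99, 3.63 and 3.0 CPM in control lymph node. The groups did not overlap, and Egr2 was 5.33-fold lower in lymph node (log2 fold change -2.42 ± 0.32, edgeR adjusted p = 1.91e-05). In cKO mice it was 5.46-fold lower. Egr1 was 1.89-fold lower in controls and 3.52-fold lower in cKO mice, with means of 42.9 ± 3.44 and 32.7 ± 2.66 CPM in lymph node against 66.2 ± 10.9 and 97.0 ± 4.26 CPM in spleen. Egr3, the least abundant, was 3.42-fold lower in controls and 3.35-fold lower in cKO mice.

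AP-1 subunits differed among themselves. Fosb was 6.1-fold lower in control lymph node (69.7 ± 10.9 against 349 ± 68.8 CPM) and 4.94-fold lower in cKO lymph node (61.4 ± 12.9 against 255 ± 14 CPM), and its log2 fold changes were -2.61 ± 0.14 and -2.30 ± 0.14. Fos was 1.83-fold lower in controls and 2.54-fold lower in cKO mice. Jun, at 722, 894 and 859 CPM in control spleen and 789, 916 and 639 CPM in control lymph node, had overlapping groups in controls and a log2 fold change of -0.37 ± 0.13 (edgeR adjusted p = 0.0333), and was 2.05-fold lower in cKO lymph node. Junb, which often opposes JUN, had a log2 fold change of -0.15 ± 0.10 in controls (edgeR adjusted p = 0.247) and was 1.37-fold lower in cKO mice (edgeR adjusted p = 0.00308).

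Scaling moved all of these differences, and the calls of the smallest turned on it. With total counts in place of TMM, the log2 fold change of Nr4a1 in controls was -1.25 against -1.54. That of Nr4a2 in cKO mice was -0.53 against -0.78. TMM factors ran from 0.8368 to 0.9359 in spleen and from 1.063 to 1.133 in lymph node. With total counts alone, an alternative added after the data were seen, the median of all genes moved to 0.28 in controls and 0.25 in cKO mice. The calls over all genes then split into 5273 higher and 2408 lower in controls, against 3651 and 3518 with TMM, and into 3996 and 1752 in cKO mice, against 2454 and 2653. Jun in controls then had a log2 fold change of -0.08 (edgeR adjusted p = 0.624) and Junb turned to 0.14 in controls (0.174) and -0.21 in cKO mice (0.0599), while Nr4a1, Nr4a2, Nr4a3, Egr1, Egr2, Egr3, Fos and Fosb were still called lower in both genotypes. The call of Jun in controls was also lost without the first or the third lymph node control and without the second or the third spleen control (adjusted p = 0.0779 to 0.179).

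**Figure D3:**
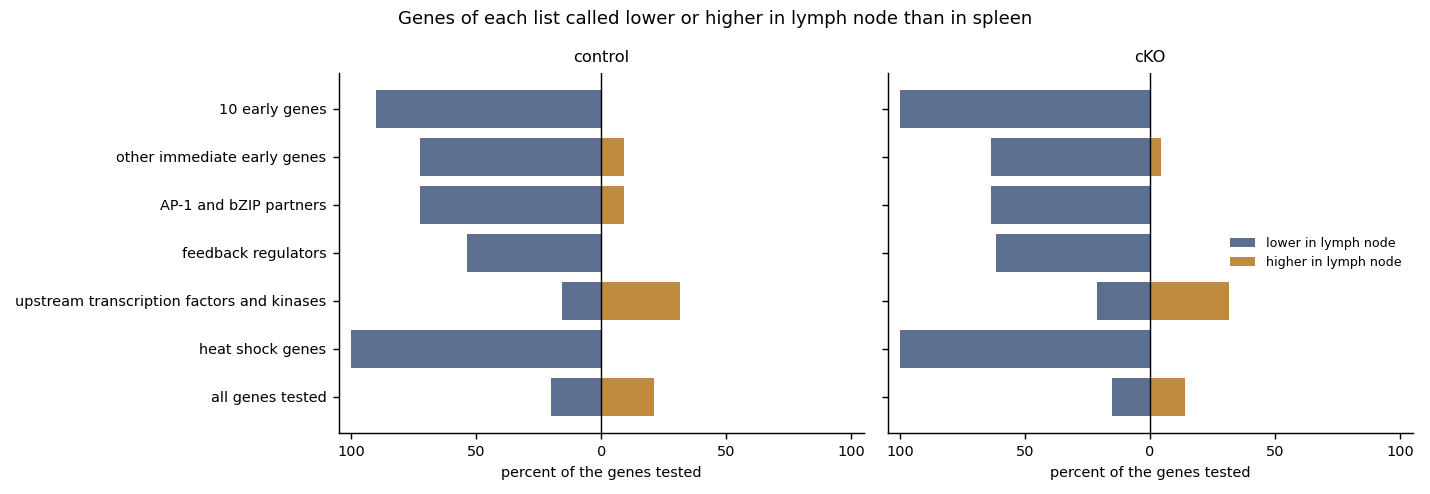
Percent of the tested genes of each list that edgeR called lower (left of 0) or higher (right of 0) in lymph node than in spleen, in control and in cKO mice. The 10 early genes, the other immediate early genes and the heat shock genes lie mostly to the left, while all genes tested split about evenly.

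Related genes were lower in lymph node as well. Of 22 other immediate early genes tested, 16 were called lower and 2 higher in controls, and 14 lower and 1 higher in cKO mice. Rgs2, a brake on G protein signalling, was at 98.0 ± 14.4 CPM in control lymph node and 431 ± 12.3 CPM in control spleen (log2 fold change -2.43 ± 0.10), and Klf2, a quiescence factor, at 261 ± 80.1 and 852 ± 68.7 CPM (-2.0 ± 0.28). Trib1 (-1.95 ± 0.10) and Ier3 (-1.90 ± 0.19) were lower too. Against this direction, Arc, an early gene best known from neurons that has also been linked to dendritic cell migration, was at 879 ± 118 CPM in control lymph node and 148 ± 2.17 CPM in control spleen (2.27 ± 0.15), and Myc rose by 2.23 ± 0.54 from 2.03 ± 1.63 CPM. In cKO mice Arc was higher in lymph node by 1.75 ± 0.14.

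Of 11 AP-1 and bZIP partners tested, 8 were lower and 1 higher in control lymph node, and 7 lower and none higher in cKO lymph node. Jdp2, a repressor that pairs with JUN, had a log2 fold change of -3.46 ± 0.41 in controls, Batf of -1.75 ± 0.10, Jund of -1.65 ± 0.44 and Atf3 of -1.57 ± 0.09, whereas Batf2 was higher by 3.01 ± 0.64 at 4.91 ± 1.11 CPM. Feedback regulators were lower for 7 of 13 in controls and 8 of 13 in cKO mice, and none was higher. They included Dusp5, a nuclear ERK phosphatase (318 ± 64.0 against 1068 ± 64.1 CPM; -2.04 ± 0.16 in controls), and Nab2, a corepressor of EGR proteins (4.64 ± 0.738 against 14.8 ± 5.66 CPM; -1.94 ± 0.28). Of 19 upstream factors and kinases, 6 were higher and 3 lower in controls and 6 higher and 4 lower in cKO mice. Over all genes tested, 21.0% were higher and 20.3% lower in controls, and 14.1% higher and 15.3% lower in cKO mice. The list had calls in both directions, so its members are given as single genes. Srf was lower in both genotypes (-0.93 ± 0.19 and -0.88 ± 0.19), and Mapk3, which encodes ERK1, was higher in both (0.75 ± 0.12 and 0.67 ± 0.12).

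All 12 heat shock genes tested were lower in lymph node in both genotypes by edgeR, led in controls by Hspe1 (-2.41 ± 0.09) and Hspb1 (-2.27 ± 0.14). Their summed level ran from 8717 to 9984 CPM in control spleen and from 6687 to 7347 CPM in control lymph node. Summed over 8 migratory dendritic cell markers the level ran from 10316 to 12003 CPM in control spleen and from 19345 to 20761 CPM in control lymph node, and over 10 T cell markers from 72.5 to 90.6 CPM and from 320 to 330 CPM. Summed levels of several other lists were lower in lymph node, together with the early genes. The 10 cDC1 markers summed to between 3321 and 3422 CPM in control spleen and between 2023 and 2053 CPM in control lymph node. Of these 10, 8 were called lower and none higher. Plasma cell markers ran from 1230 to 1478 CPM and from 312 to 336 CPM (5 of 8 called lower, 1 higher). The sum of red pulp macrophage markers ran from 242 to 269 and from 139 to 155 CPM, but its members were split. Of 9 tested, 4 were called lower and 3 higher, with a median log2 fold change of 1.35. B cell markers ran from 33.7 to 53.6 and from 9.65 to 15.2 CPM, with 2 of 10 called lower and 2 higher. Erythroid markers ran from 85.8 to 104 CPM and from 0.686 to 1.29 CPM, with 4 of the 7 at 0 in all control lymph node libraries, and neutrophil markers from 18.6 to 22.7 and from 0.172 to 0.755 CPM, with 3 of the 6 at 0. The part of these lists in the lower early genes was not tested.

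Within a tissue some of the genes moved together and others oppositely. After subtracting each tissue's mean of log2 CPM, Nr4a1 correlated over the 12 libraries of the third table at r = 0.81 with Fos, 0.78 with Jun and 0.71 with Egr1, but at -0.86 with Nr4a2 and -0.89 with Nr4a3. Egr2 and Fosb did not follow Nr4a1 or Egr1, at 0.02 and -0.23 with Nr4a1 and at 0.06 and -0.44 with Egr1. Fos correlated at 0.87 with Jun, 0.18 with Fosb, -0.10 with Egr2, -0.87 with Nr4a2 and -0.85 with Nr4a3. These values describe libraries that also differ by genotype and share their depth and scaling. Among 7442 genes compared, the non-members most like Nr4a1 were Ube2c (r = 0.92), a mitotic ubiquitin-conjugating enzyme, and Zbtb21 (0.91). Those most like Egr1 were Hsp90b1 (0.92), an endoplasmic reticulum chaperone, and Dars (0.91), an aminoacyl-tRNA synthetase. Those most like Fos were Hspa1a (0.95), which encodes an inducible HSP70, and Smc1a (0.94), a cohesin subunit.

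In the first table none of the 10 genes was called between TLI/ATS and untreated cDC1s by edgeR, where 0.499% of all genes tested were called higher and 2.2% lower. None reached an unadjusted p under 0.05 with edgeR, and DESeq2 called none. Abundance was high in both groups: Fos stood at 4690 and 3947 CPM after TLI/ATS and at 3922 and 3910 CPM in untreated cDC1s, a log2 fold change of 0.26 ± 0.15. Nr4a3 came nearest the threshold, with 19.4 and 16.8 CPM after treatment and 32.7 and 24.7 CPM without it. The groups did not overlap, and the log2 fold change was -0.54 ± 0.22 (edgeR adjusted p = 0.337).

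**Figure D4:**
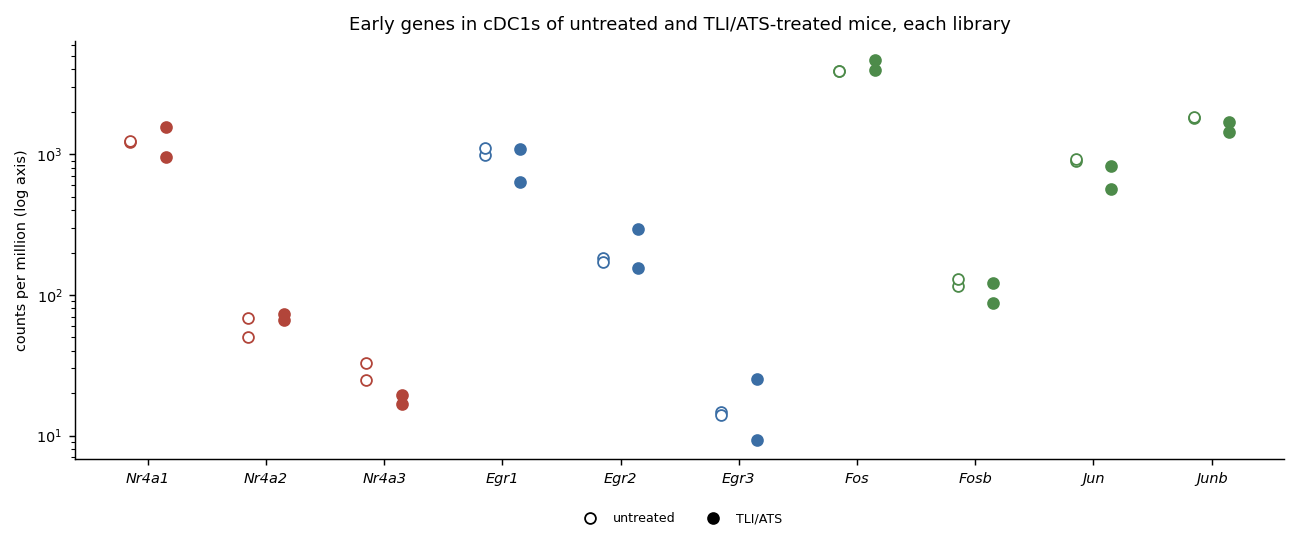
CPM (log axis) of the 10 early genes in each library of untreated (open) and TLI/ATS-treated (filled) cDC1s. The untreated pair nearly coincides for most genes, while the treated pair is split, as for Nr4a1 at 1555 and 948.

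For 8 of the 10 genes, all but Nr4a2 and Nr4a3, the treated libraries differed from each other more than the untreated ones did. The share of all genes that did so was not computed, so this split is not a result about the early genes. The treated libraries were also further apart in their TMM factors (1.008 and 0.9108) than the untreated ones (1.044 and 1.043). Nr4a1 stood at 1555 and 948 CPM after TLI/ATS and at 1216 and 1234 CPM in untreated cDC1s. Egr1 stood at 1087 and 634 CPM against 986 and 1104 CPM, and Egr2 at 292 and 155 CPM against 182 and 171 CPM. In each case the first treated library was the higher of the pair. Egr3 showed the same split, at 25.3 and 9.31 CPM after treatment and 14.6 and 14.1 CPM without it. Jun (822 and 563 CPM against 891 and 920 CPM) and Junb (1701 and 1442 CPM against 1799 and 1834 CPM) lay below both untreated libraries in both treated ones, with log2 fold changes of -0.28 ± 0.19 and -0.09 ± 0.15. Nr4a2 (72.7 and 65.8 CPM against 68.3 and 50.2 CPM) and Fosb (122 and 87.3 CPM against 116 and 130 CPM) had overlapping groups.

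Log2 fold changes depended on which treated library was kept. Without the first they were -0.17 for Nr4a1, -0.52 for Egr1, -0.48 for Jun and 0.21 for Fos. Without the second they were 0.40 for Nr4a1, 0.77 for Egr2, 0.87 for Egr3 and 0.31 for Fos. Each of these fits held a lone treated library, assumed to vary like the untreated pair, so its calls are not read as results about the early genes. Of the lists, 2 of 12 heat shock genes were called lower after TLI/ATS, Hspa1b by -2.42 ± 0.17 and Hspa1a by -2.20 ± 0.18. None of the 67 genes tested from the other 4 lists was called by edgeR (16 at an unadjusted p under 0.05, 7 called by DESeq2). DESeq2 called 1414 of all 17236 genes tested in this comparison. Summed markers of other cells differed widely between the groups: T cell markers ran from 19.7 to 26.0 CPM after treatment and from 736 to 739 CPM without it, B cell markers from 41.2 to 52.0 and from 676 to 687 CPM, and red pulp macrophage markers from 995 to 1458 and from 202 to 220 CPM. Their part in the early gene levels was not tested.

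In the second table none of the 10 genes was called between EpoR+ and EpoR- cDC1s by edgeR in the fit without a block by library number. In that fit 11.9% of all genes tested were called higher and 4.75% lower. None of the 10 reached an unadjusted p under 0.05 in it, and DESeq2 called none. What set the libraries apart was their number: in both fractions the second library held more NR4A mRNA than the first. Nr4a2 stood at 22.5 and 391 CPM in EpoR- libraries 1 and 2 and at 10.6 and 205 CPM in EpoR+ libraries 1 and 2. The second library was 17.3-fold above the first in EpoR- and 19.1-fold above it in EpoR+.

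**Figure D5:**
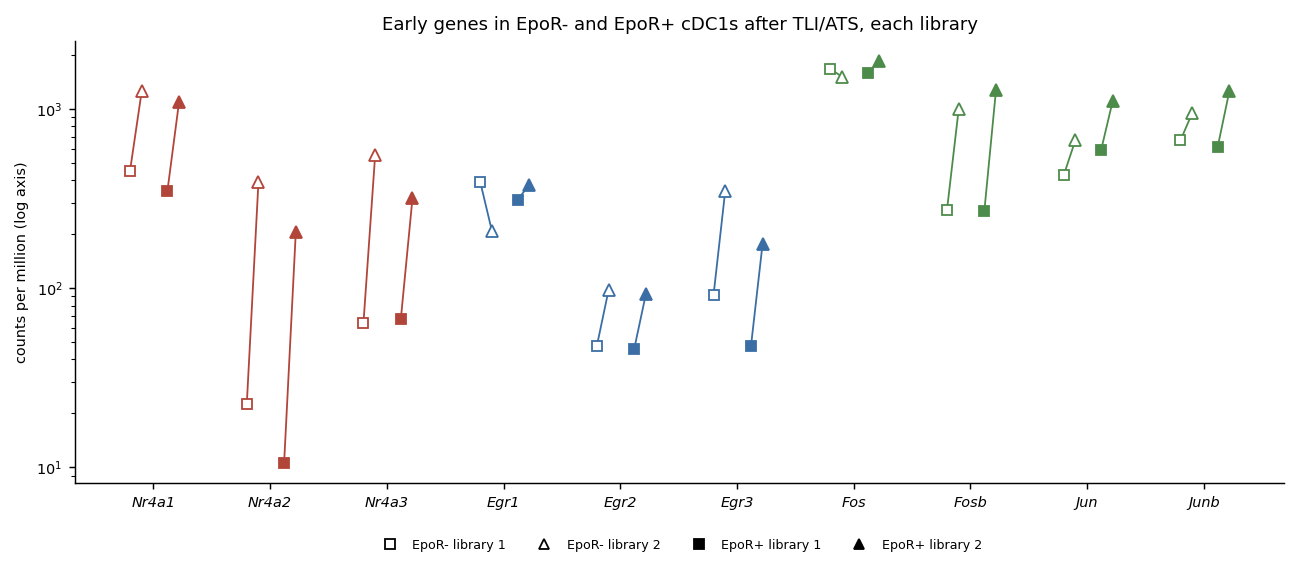
CPM (log axis) of the 10 early genes in the EpoR- (open) and EpoR+ (filled) libraries, with a line from library 1 (square) to library 2 (triangle) of each fraction. Lines rise steeply for Nr4a2, Nr4a3, Egr3, Fosb and Nr4a1 in both fractions and are nearly flat for Fos.

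Over 2-fold higher in library 2 than in library 1 of both fractions were 6 of the 10 genes, Nr4a1, Nr4a2, Nr4a3, Egr2, Egr3 and Fosb, and 4.59% of all genes tested. Nr4a3 stood at 64.2 and 552 CPM in EpoR- and 67.2 and 318 CPM in EpoR+, ratios of 8.58 and 4.73. Fosb stood at 274 and 996 CPM in EpoR- and 270 and 1280.5 CPM in EpoR+, ratios of 3.64 and 4.74. Egr3 stood at 92.1 and 351 CPM in EpoR- and 47.3 and 177 CPM in EpoR+, and Nr4a1 at 454 and 1260 CPM and at 349 and 1098 CPM. Fos, in contrast, stood at 1671 and 1515 CPM in EpoR- and 1581 and 1856 CPM in EpoR+, and Egr1 at 393 and 209 CPM and at 312 and 376 CPM. The labels tie library numbers to no animal or day.

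Between the fractions, Jun had a log2 fold change of 0.61 ± 0.40 (edgeR adjusted p = 0.414), with 588 and 1109 CPM in EpoR+ and 426 and 670 CPM in EpoR-. Within each library number, Jun was 1.38-fold and 1.66-fold higher in EpoR+, Nr4a2 stood at 0.472 and 0.524 of its EpoR- level and Egr3 at 0.514 and 0.506. Standard errors in the fit without a block by library number include the shift between the library numbers. They were 2.0 for Nr4a2 (log2 fold change -0.95), 1.37 for Nr4a3 (-0.69), 1.01 for Egr3 (-0.99) and 1.07 for Fosb (0.27). Each was as large as or larger than its difference. Junb (0.21 ± 0.41), Egr1 (0.17 ± 0.34), Egr2 (-0.08 ± 0.52), Nr4a1 (-0.26 ± 0.83) and Fos (0.09 ± 0.12) also missed the threshold in that fit. With the block, edgeR called Nr4a2 (-1.02, adjusted p = 0.000149), Egr3 (-0.99, 8.48e-05) and Nr4a1 (-0.3, 0.01) lower and Jun (0.58, 0.00177) higher. The other early genes were not called. Of all 15627 genes tested, the fit with the block called 3077 higher and 2270 lower. The 4 calls are therefore given as single genes and not as a result about the early genes. Over 9140 genes, same-numbered libraries deviated alike from the means of their fractions (r = 0.694). Whether equal numbers pair libraries is not stated in the labels, so the labels do not decide between these fits.

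Of the 68 genes tested from the 4 lists of related early genes, partners, feedback regulators and upstream factors, 4 were called higher and 5 lower in EpoR+ cDC1s, beside the 11.9% and 4.75% of all genes tested, so the members below are given as single genes and not as a result about the lists. Dusp6, a cytosolic ERK phosphatase, was at 177 ± 17.8 CPM in EpoR+ and 84.1 ± 7.61 CPM in EpoR- cDC1s (SD, n = 2; log2 fold change 1.06 ± 0.13, edgeR adjusted p = 0.00534), the only feedback regulator of 14 called higher. Btg2, an antiproliferative early gene, was the only one called lower (509 ± 86.9 against 842 ± 77.4 CPM; -0.74 ± 0.15). Of 23 other immediate early genes tested, Klf10 was higher (1.49 ± 0.34) and Trib1 lower (-0.82 ± 0.14), of 12 AP-1 and bZIP partners Batf2 was higher (1.89 ± 0.36) and Batf3, a factor that cDC1s require, lower (-0.62 ± 0.14), and of 19 upstream genes Elk3 was higher (1.02 ± 0.18) and Nfatc2 (-0.84 ± 0.12) and Mrtfa (-0.53 ± 0.10) lower. The 10 red pulp macrophage markers summed to between 18587 and 18987 CPM in EpoR+ and between 260 and 267 CPM in EpoR- libraries, and the 10 cDC1 markers to between 7536 and 8970 and between 15840 and 17433 CPM. Their part in these differences was not tested.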

How the data were processed

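The values were whole-number read counts per gene, deposited by the authors without normalization in 3 tables, each analysed apart. The first was made with featureCounts after HISAT2, SAMtools and StringTie, per the submitters' processing notes, for the build GRCm38, and the versions of these tools for it are not given in the sources used here. Counts of the second came, per the file headers, from featureCounts 2.0.3 without strand and the third from featureCounts 2.0.8 on Ensembl release 100, after HISAT2 2.1.0 per the submitters' processing notes. In both, each read of a pair adds its own count, so precision is below what the totals imply.

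Counts were filtered with filterByExpr (minimum 10), scaled by TMM and tested with edgeR 4.0.16 (quasi-likelihood, robust) in R 4.3.3, with Benjamini-Hochberg adjustment over all genes tested and a threshold of 0.05. The third table was fitted on its 12 libraries together. On counts simulated with known changes in 200 genes, the test recovered 60% of the genes changed 2-fold and 86% of those changed 4-fold in the lymph node cKO comparison, 19% and 86% in the TLI/ATS comparison and 38% and 84% in the EpoR comparison. Only well-counted genes were changed, and each gene was given the average spread for its level, with no shift between library numbers. These shares do not describe genes with a wider spread, such as Nr4a2 in the second table. Library ratios in the second table used CPM + 0.1. From each list, at most 4 called genes a direction were named, by size of fold change, and likeness used genes whose log2 CPM averaged 3 or more. The members and lists were chosen with earlier results of these data known. Alternatives were DESeq2 1.42.0, its size factors, no filter, a replicate block, the 2 groups alone, each library left out and, added after seeing the data, total-count scaling and a crossed block.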

Additional observations from a re-analysis of the deposited data

Results flagged for a closer look

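The difference between cKO and control libraries was unlike in lymph node and spleen for 3 of the 10 genes by the interaction test of edgeR over the 12 libraries. For Nr4a3 the log2 difference in lymph node minus that in spleen was 1.08 (adjusted p = 0.037), for Egr1 it was -0.90 (adjusted p = 0.0214) and for Fos -0.48 (adjusted p = 0.0417). Over all genes tested, 0.127% were called with a more positive effect in lymph node and 0.19% with a more negative one. With 1 library left out, 0 to 4 of the 10 genes were called, so these calls depended on single libraries. None of the groups had enough libraries for a test of single libraries that stand apart.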

How the results depend on the processing

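With each library left out in turn, log2 fold changes kept their direction and their side of the threshold in 365 of 440 cases, and in 372 of 400 under the other alternatives. The number of the 10 genes called then ran between TLI/ATS and untreated 0 to 4, between EpoR+ and EpoR- 0 to 1, between cKO and control in spleen 0 to 1, between cKO and control in lymph node 2 to 4, in the difference of the cKO effect 0 to 4. The number of all genes called ran between TLI/ATS and untreated 476 to 4908, between EpoR+ and EpoR- 1454 to 2600, between cKO and control in spleen 31 to 379, between cKO and control in lymph node 51 to 72, in the difference of the cKO effect 29 to 222. Direction turned, among values not called with all libraries, between TLI/ATS and untreated Nr4a1 -0.17 to 0.40, Egr1 -0.52 to 0.11, Egr3 -0.42 to 0.87, Fosb -0.29 to 0.04; between EpoR+ and EpoR- Nr4a1 -1.30 to 0.64, Nr4a2 -4.29 to 2.23, Nr4a3 -2.20 to 1.55, Egr1 -0.22 to 0.71, Egr2 -0.67 to 0.51, Egr3 -2.23 to 0.25, Fos -0.01 to 0.19, Fosb -1.24 to 1.47, Junb -0.39 to 0.62; between cKO and control in spleen Nr4a2 -0.18 to 0.04, Fos -0.04 to 0.05; between cKO and control in lymph node Egr2 -0.12 to 0.70; between the tissues in controls Junb -0.21 to 0.00; in the difference of the cKO effect Egr2 -0.29 to 0.53, Egr3 -0.33 to 0.50. With DESeq2 the number of all genes called was 1414 between TLI/ATS and untreated (465 with edgeR), 549 in spleen (106), 177 in lymph node (79) and 426 for the difference of the cKO effect (55), and 2 of the 10 genes were called in spleen (Egr1 and Fosb), 5 in lymph node (Nr4a1 beside the 4 that edgeR called) and 6 in the difference (Nr4a1, Nr4a2, Nr4a3, Egr1, Fos and Jun). With no filter on low counts these were 436, 170 and 364 genes in spleen, lymph node and the difference, and the same 2 and 6 early genes. In a fit of the 2 lymph node groups alone, 44 genes and 2 early genes were called. Scaling by total counts turned Fos in spleen to 0.02, Junb between the tissues in controls to 0.14 and Egr3 in the difference of the cKO effect to -0.02, and split the calls into 102 higher and 9 lower in spleen (85 and 21 with TMM) and 15 higher and 41 lower in the difference (22 and 33). The cause of these shifts was not tested.

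The labels give replicate numbers but do not say that they pair libraries. Same-numbered libraries had deviations from their group means that correlated at 0.694 in the second table and at most at 0.00352 in the third. With a replicate block 1264 genes were called between TLI/ATS and untreated, 5347 between EpoR+ and EpoR- (2606 without), 40 in spleen and 34 in the difference of the cKO effect, in which 1 early gene (Egr1) was called and Egr2 stood at 0.01. Between EpoR+ and EpoR- the replicate block called 4 of the 10 genes, Nr4a1, Nr4a2 and Egr3 lower and Jun higher. With the numbers of the first table crossed, at a correlation of -0.12 for equal numbers, the block called 1159 genes. With 2 libraries per group in the first and the second table, the spread there rests on 1 difference per group. Depth limited Epor in spleen, where most libraries had under 3 counts.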
